A study of Mus musculus with 8 samples.

Results

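Arterial endothelium with Vwf is described here from 8 single-cell RNA libraries of mouse endothelial cells. The members were chosen by these conditions: 500 or more UMIs, 300 or more genes, no more than 10% of UMIs from mitochondrial genes, at least 1 UMI of at least 2 of the 5 arterial genes Gja5, Sema3g, Hey1, Gkn3 and Bmx, at least 1 UMI of Pecam1 or Cdh5, at least 1 UMI of Vwf, and no UMI of Selp, Prox1, Ptprc or Adipoq. This gave 1245 members of the 23996 barcodes within the depth and mitochondrial limits, out of 27944 deposited. The same conditions without Vwf gave 2451 arterial barcodes, so 1206 had no Vwf UMI. The measured UMIs of 12 genes thus selected the members, and those genes are described below without a test.

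All mice were male and carried ROSA26-eYFP+/+ Cdh5-CreERT2+, in which the endothelial promoter of Cdh5 drives a tamoxifen-dependent Cre that switches on a yellow fluorescent reporter. Every group ate tamoxifen food for 2 weeks from 6 weeks of age, and at 8 weeks of age was put on normal chow with 5.8% fat or on a diet with 60% fat, called high fat diet below, which lasted 12 to 13 weeks. Mesentery or epididymal adipose tissue was digested in the presence of actinomycin D, a blocker of transcription, and reporter-positive cells were sorted for 10x Genomics 3′ libraries. Each library pools 6 mice, so n is 2 pools in each of 4 groups (mesentery or adipose, chow or high fat diet), and the experiment was done as 2 independent runs, A and B.

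Endothelium of arteries differs from that of capillaries and veins in its gene expression: Notch signalling through Dll4, Jag1 and the targets Hey1 and Hey2 marks the arterial state, connexin 40 (Gja5) couples the cells, and larger arteries are wrapped in elastic fibres. Vwf encodes von Willebrand factor, which is stored in Weibel-Palade bodies and binds platelets at sites of injury. It is abundant in venous endothelium and in large arteries and is low in many capillaries. Capillary endothelium of fat takes up fatty acids through Gpihbp1, lipoprotein lipase, Cd36 and fatty acid binding proteins. Vwf lies at chr6:125546774-125686679 on the plus strand, Gja5 at chr3:96904693-97077416 on the plus strand and Hey1 at chr3:8663359-8667256 on the minus strand of GRCm38, all as protein-coding genes.

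The libraries held 3461360 to 36779289 UMIs. Run A gave 40 to 64 members a library, with 64 from mesentery on chow, 40 from mesentery on high fat diet, 51 from adipose on chow and 44 from adipose on high fat diet. Run B gave 308, 201, 268 and 269 in the same order. The summed UMIs of the members ranged from 111553 to 295270 for run A libraries and from 1400773 to 1855021 for run B libraries, so values of run A rest on fewer UMIs. At most 10 barcodes were shared by any 2 libraries, and at most 1 of those was a member in both. Scrublet, a doublet caller, marked 0 to 15 barcodes a library by its automatic threshold, so no doublets were removed in the main analysis. A stricter removal is given with the other settings.

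Among the members, Sema3g had a UMI in 92.9%, Bmx in 70.4%, Gja5 in 69.0%, Hey1 in 56.6% and Gkn3 in 41.7%. At the lower bound of the rule, 305 members had exactly 2 of these genes, 405 had 3, 383 had 4 and 152 had 5. Another 442 barcodes had Vwf but only 1 arterial gene and were left out. Of the members, 436 had a single Vwf UMI and 809 had 2 or more, with a median of 2 and a maximum of 31. Levels below are CPM, the UMIs of a gene over all UMIs of the summed members of a library, scaled in the usual way per 1000000. Vwf lay between 488.1 and 965.7 CPM over the 8 libraries, Gja5 between 202.2 and 452.6 CPM, and Hey1 was at 162.7 CPM or more. Barcodes with a UMI of Ptprc, a leukocyte gene, and no UMI of Pecam1 or Cdh5 should lack Vwf. Of these, 0 to 6.68% a library had a Vwf UMI at median depths of 1262 to 12368 UMIs. Ptprc barcodes with Pecam1 or Cdh5 were left out, so this is not the rate for all Ptprc barcodes. Members had median depths of 2039 to 6187 UMIs.

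Markers outside the rule were described next. Over 25 further arterial markers, the members held 15860 to 40000 CPM. Arterial barcodes without Vwf held 9529 to 30040 CPM, so the ranges overlapped, though the members were higher within each library. Endothelial barcodes with Selp, a gene of veins, and fewer than 2 arterial genes (1845 in all, called Selp barcodes here) held 6600 to 15360 CPM. Members and Selp barcodes were chosen by arterial genes and Selp, so differences in related markers follow in part from the choice. The 11 venous markers other than Selp came to 569.1 to 3206 CPM in the members and 3091 to 7396 CPM in the Selp barcodes. Within each library the members were lower. The ranges overlapped because the members of mesentery on chow in run A (3206 CPM) exceeded the Selp barcodes of mesentery on high fat diet in run B (3091 CPM). Arterial barcodes without Vwf held 213.8 to 2258 CPM, below the members in each library. Vwf itself was not particular to arteries. It had a UMI in 68.6 to 96.3% of the Selp barcodes a library, at 698.0 to 2523 CPM. Vessel size was not measured in these data, so the word large in the label could not be checked.

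Markers of other cell types were present at low levels and varied between libraries. Summed over 10 mural cell markers the members held 91.5 to 1717 CPM, over 8 fibroblast markers 50.3 to 612.9 CPM, over 8 adipocyte markers 6.52 to 489.1 CPM, over 10 macrophage markers 0 to 116.0 CPM and over 5 red cell genes 0 to 270.8 CPM. Of the 5 mesothelial markers 2 had no UMI in any library, as had 4 of the 8 lymphocyte markers. The mural sum was 91.5 to 394.6 CPM in the 4 libraries of run A and 742.2 to 1717 CPM in those of run B.

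The share of arterial barcodes that carried Vwf was described first, since the study asks about differences among arterial endothelial cells. In mesentery on chow the share was 74.4% in run A (64 of 86) and 65.4% in run B (308 of 471). In mesentery on high fat diet it was 70.2% (40 of 57) and 38.9% (201 of 517). In adipose tissue on chow it was 51.0% in run A and 49.6% in run B, and with the high fat diet it came to 60.3% and 44.3%. The mean was 69.9% ± 6.39 (SD, n = 2) in mesentery on chow, 54.5% ± 22.1 in mesentery on high fat diet, 50.3% ± 0.969 in adipose on chow and 52.3% ± 11.3 in adipose on high fat diet.

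The lowest share was that of mesentery on high fat diet in run B, whose exact 95% binomial interval was 34.7 to 43.2%, while the run A library of the same group had an interval of 56.6 to 81.6%. Intervals cover counting error only. The groups on the 2 diets overlapped. On the logit scale the share differed by -0.286 between high fat diet and chow over all 8 libraries, with a two-sided exact permutation p of 0.4571, where the smallest p possible is 0.0286. With the diets swapped only within a tissue and run, the exact permutation p was 0.5, where the smallest possible is 0.125. Mesentery and adipose tissue differed by 0.467 (exact permutation p = 0.2571, a comparison added after the shares had been seen). After each cell was thinned to 1000 UMIs, the difference between the diets was -0.003 with an exact permutation p of 1.0. The mean shares of the thinned cells were 37.3% in mesentery and 37.0% in adipose tissue on chow. On high fat diet they were 36.6% and 37.7%. The run A library of mesentery on chow, highest before thinning, was then at 31.4%. The tissue difference was not tested on thinned cells. Members made up 4.29 to 7.74% of endothelial barcodes before thinning.

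**Figure D1:**
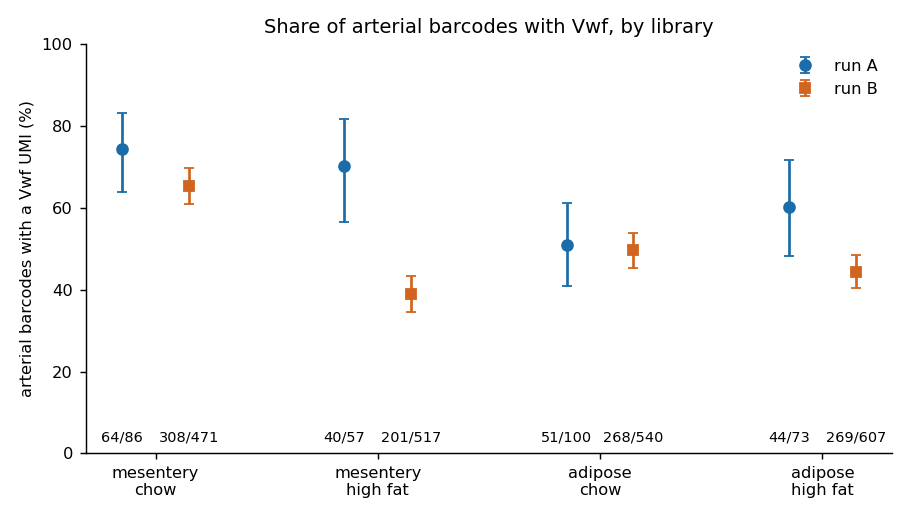
Percent of arterial barcodes with at least 1 Vwf UMI in each library, with exact 95% binomial intervals as bars and the counts of barcodes at the bottom. The run B library of mesentery on high fat diet is the lowest at 38.9%, and the run A library of mesentery on chow the highest at 74.4%.

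Arterial barcodes with Vwf were then set against those without Vwf from the same library, to ask what else differs where Vwf is detected. The members had higher levels of elastic fibre and vessel wall genes and of the secreted factors Cytl1 and Bmp4, and lower levels of capillary and fatty acid uptake genes. Raw UMIs were summed per class and library and tested with edgeR's quasi-likelihood test with the library as a block, over 6255 genes outside the rule. At a Benjamini-Hochberg adjusted p under 0.05, 894 genes (14.3%) were called, of which 479 (7.66%) were higher and 415 (6.63%) lower with Vwf. The median log2 difference of all genes tested was -0.02.

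Cytl1, a gene for a small secreted cytokine-like protein, was at 4554, 1670, 2906 and 1315 CPM with Vwf in the run A libraries (mesentery chow, mesentery high fat diet, adipose chow, adipose high fat diet) and at 2273, 501.7, 670.6 and 445.2 CPM without. In run B it was at 1925, 363.3, 637.8 and 221.8 CPM with Vwf and at 490.1, 28.9, 51.8 and 14.3 CPM without. Every one of the 8 libraries was higher with Vwf, with a log2 difference of 2.50 ± 0.22 (SE, edgeR adjusted p = 2.022e-08). The median depth was higher with Vwf in every library. It was closest in adipose tissue on high fat diet of run B, 5416 UMIs with Vwf and 5412.5 without. The widest gap was in mesentery on chow of run A, 4782.5 UMIs with Vwf and 2274 without.

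Elastin itself (Eln, at chr5:134702593-134747323 on the minus strand) had 297.4 to 1274 CPM with Vwf and 64.1 to 890.4 CPM without. It was higher with Vwf in all 8 libraries, by 1.76 ± 0.15 (adjusted p = 2.022e-08, edgeR). The matrix proteoglycan biglycan (Bgn) ranged from 362.6 to 1776 CPM with Vwf and from 41.8 to 680.3 CPM without, a log2 difference of 2.34 ± 0.17. Lysyl oxidase (Lox), which crosslinks elastin and collagen, differed by 2.12 ± 0.17 and was higher in 7 of 8 libraries. The latent TGF-beta binding protein Ltbp4, which assembles with elastic fibres, differed by 0.79 ± 0.07. Of the 22 genes in the elastic fibre and vessel wall list, 12 passed the filter on low counts, 11 of these were higher and none lower, and their median log2 difference was 1.10.

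Signalling genes were called in both directions. The ligand Bmp4 (chr14:46383520-46390669, minus strand) had 19.6 to 133.6 CPM with Vwf and 12.4 to 61.9 CPM without, a difference of 1.76 ± 0.17. In mesentery on high fat diet of run A the class without Vwf held only 47861 UMIs. In that 1 library Bmp4 was lower with Vwf, at 19.6 against 20.9 CPM. Its receptor gene Bmpr2 differed by 0.46 ± 0.08 and the transducer Smad1 by -0.73 ± 0.13, with Smad1 lower in 6 of 8 libraries. In all, 6 of the 16 BMP and TGF-beta genes tested were higher and 5 lower. Of 11 Notch pathway genes tested, 6 were higher and 1 lower. The target Hey2 differed by 2.31 ± 0.26 and the ligand Dll1 by 1.16 ± 0.14. The receptor Notch4 differed by 0.60 ± 0.10 and the ligand Jag1 by 0.65 ± 0.12. Dll1 and Notch4 were higher in 6 of 8 libraries and Jag1 in 5 of 8. In run A alone, Jag1 came to -0.20 and Notch4 to -0.03.

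Among transcription factors, Gata6 was higher with Vwf by 1.68 ± 0.17 and Meis2 by 1.03 ± 0.17, while Ets1 was lower by a log2 difference of -0.77 ± 0.09. In the whole list of these factors 4 of 19 tested were higher and 6 lower. Genes of vessel tone were more often higher, with 8 of 14 tested higher and 2 lower. They included Kcnn4, a calcium-activated potassium channel of endothelial hyperpolarisation, at 1.61 ± 0.16, the angiotensin-converting enzyme gene Ace at 1.43 ± 0.18 and the nitric oxide synthase gene Nos3 at 0.66 ± 0.10. The endothelin B receptor gene Ednrb went the other way at -1.81 ± 0.19 and was lower with Vwf in all 8 libraries.

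Among haemostasis genes other than Vwf, 7 of 12 tested were higher and 1 lower. Procr, the endothelial protein C receptor gene, differed by 1.05 ± 0.16 and was higher in 6 of 8 libraries. Plat, the tissue plasminogen activator gene, differed by 0.97 ± 0.15 and was higher in 5 of 8. Of 8 leukocyte adhesion and chemokine genes tested, 7 were higher. The adhesion molecule genes Vcam1 (2.11 ± 0.25) and Icam1 (1.37 ± 0.14) rose with Vwf in all 8 libraries, and both also stand on the venous marker list, of which 3 of 6 tested were higher. The exception was Cxcl12, an arterial chemokine, at 54.2 to 1210 CPM with Vwf and 262.9 to 2523 CPM without, a difference of -1.31 ± 0.11.

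Capillary markers were lower with Vwf by the fit in all 10 that passed the filter, of 13 on the list. Their median log2 difference was -1.18, and Car4 and Timp4 were lower in only 5 of 8 libraries. Rgcc, a cell cycle regulator of capillary endothelium, had 17.9 to 368.0 CPM with Vwf and 120.9 to 852.4 CPM without (-1.59 ± 0.13). Gpihbp1, which carries lipoprotein lipase across capillary endothelium, had 0 to 1488 CPM with Vwf and 66.0 to 2727 CPM without (-1.23 ± 0.12), and was lower in all 8 libraries. Lpl, the lipase, differed by -1.41 ± 0.14 and was lower in 6 of 8 libraries. Among fatty acid and cholesterol genes 10 of 14 tested were lower and none higher. The lower genes included Plin2 of lipid droplets (-0.78 ± 0.10) and the HDL receptor gene Scarb1 (-1.06 ± 0.13), each lower in 6 of 8 libraries. The VEGF receptor gene Kdr differed by -1.15 ± 0.12 and the sialomucin gene Emcn, low in arteries, by -1.03 ± 0.10.

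**Figure D2:**
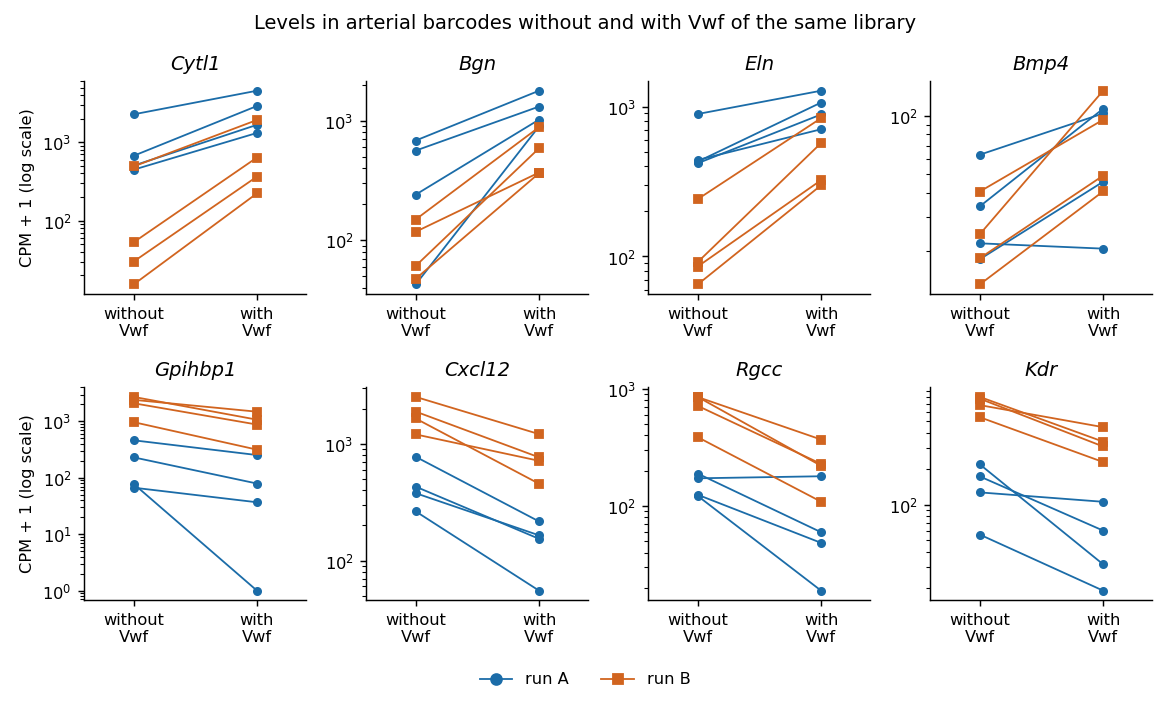
CPM + 1 on a log axis in arterial barcodes without (left) and with Vwf (right) for 8 genes, each line joining the classes of 1 library, with run A as circles and run B as squares. Cytl1, Bgn and Eln are higher with Vwf in 8 of 8 libraries, Bmp4 in 7, and Gpihbp1, Cxcl12 and Kdr are lower in 8 of 8.

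Single genes with the largest differences had varied roles. Slc4a4, a sodium bicarbonate transporter gene, was higher with Vwf by 3.19 ± 0.33, at 24.4 to 66.9 CPM with Vwf and 0 to 20.9 CPM without. The choline phosphodiesterase gene Enpp6 differed by 3.16 ± 0.28 and the protease receptor gene F2rl1 by 2.49 ± 0.21. Igf2, a growth factor gene, differed by 2.70 ± 0.18, but its level with Vwf was 3.39 to 26.1 CPM in run A and 213.6 to 727.4 CPM in run B. The water channel gene Aqp1 (-1.28 ± 0.18), the taurine transporter gene Slc6a6 (-1.41 ± 0.11) and Depp1, a FOXO-responsive gene (-1.33 ± 0.13), were lower with Vwf. All these values are from the same edgeR fit.

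**Figure D3:**
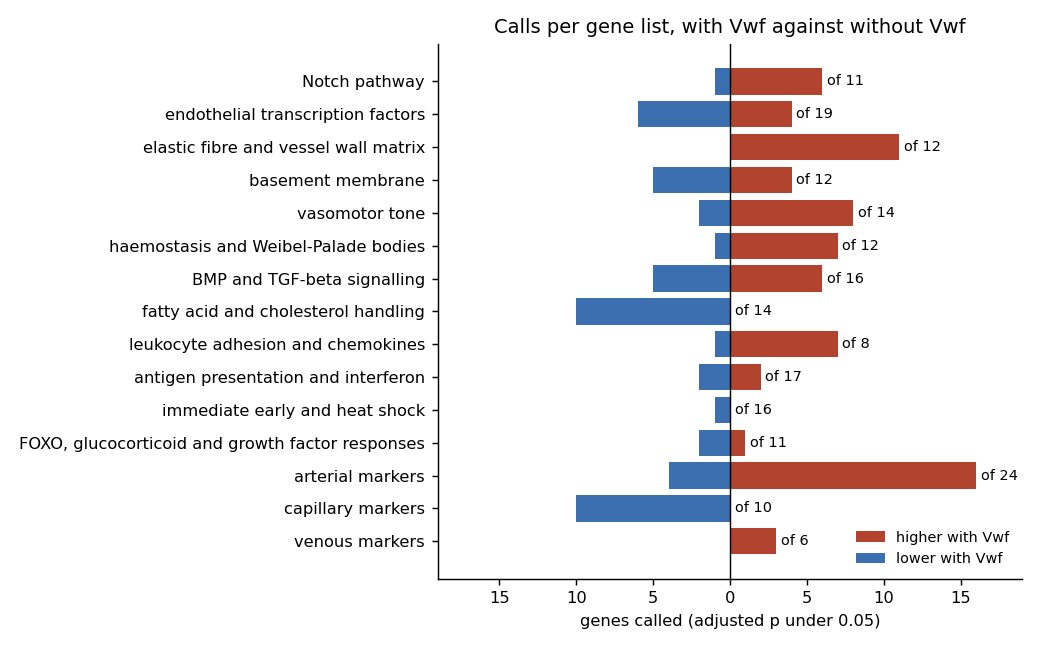
Number of genes of each list called higher (right, red) or lower (left, blue) with Vwf, with the number tested beside each bar. Elastic fibre genes (11 of 12) and arterial markers (16 of 24) lie mostly to the right, and capillary markers (10 of 10) and fatty acid genes (10 of 14) to the left.

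The members were deeper than the barcodes without Vwf in every library, with medians of 4782.5 against 2274 UMIs in the widest case, mesentery on chow of run A. When every cell was thinned to 1000 UMIs before the rule was applied, 630 genes could be tested and 69 were called, and 16 of the 23 genes given by the naming rule that could be tested kept their call. In run A alone 55 genes were called of 1696 tested, and in run B alone 1169 of 9622. Without the library block 43 genes were called. The part that free RNA or mixed barcodes play was not tested. The mural cell genes Tagln (1.07 ± 0.14) and Rgs5 (0.65 ± 0.19) were higher with Vwf too, Rgs5 in 5 of 8 libraries.

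Against the Selp barcodes of the same libraries, most arterial markers were higher in the members and all venous markers tested were lower. Both classes were chosen by arterial genes and Selp, so these differences follow in part from the choice and do not test the label. Of 8710 genes tested with edgeR and the library as a block, 1942 (22.3%) were called, 926 (10.6%) higher and 1016 (11.7%) lower in the members. Of 25 further arterial markers 20 were higher and 1 lower, and all 10 venous markers tested were lower, with a median log2 difference of -3.48. Gja4, the connexin 37 gene, was higher by 5.56 ± 0.20, Dll4 by 3.67 ± 0.16, Jag1 by 2.44 ± 0.12 and the arterial transcription factor gene Sox17 by 2.50 ± 0.19. Hey2 had 14.9 to 70.1 CPM in the members and 0 to 0.453 CPM in the Selp barcodes. Ackr1, the chemokine receptor gene of venules, had 0 to 8.76 CPM in the members and 129.9 to 342.7 CPM in the Selp barcodes (-6.11 ± 0.31), and the venous factor gene Nr2f2 differed by -3.25 ± 0.30. Bmp4 was lower in the members (-1.66 ± 0.22), as was the coagulation factor gene F8 (-4.00 ± 0.29). The fibroblast markers Pi16 (3.48 ± 0.34), Col1a2 (2.38 ± 0.27) and Col3a1 (1.63 ± 0.32) were higher in the members as well. The sum over all 8 fibroblast markers went both ways. It was lower in the members in adipose on high fat diet of run A (59.43 against 521.0 CPM). The same held in adipose on chow of run B (50.31 against 241.0 CPM), while in every other library it was higher in the members. The part of fibroblast RNA was not tested.

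The effect of the high fat diet on the members was tested within each tissue on the summed UMIs of the 8 libraries. With 1 mean per group and no term for the run, edgeR's quasi-likelihood test called none of 8855 genes in either tissue (0.0%), while 152 had an unadjusted p under 0.05 in mesentery and 42 in adipose tissue, and DESeq2 called 0 and 1. The runs differed as well. Mgp was higher in run A than in run B in all 4 groups, and Fabp4 was higher in run B. The runs are repeats of 1 experiment, and with the run as a block 132 genes (1.49%) were called in mesentery, 67 (0.757%) higher and 65 (0.734%) lower on high fat diet. In adipose tissue 42 (0.474%) were called, 21 (0.237%) in each direction. The words rose and fell below refer to this fit with the run as a block. It was added to the fit without a block, in which no gene passed. DESeq2 called 44 and 3 genes with the same block.

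In mesenteric members, Mgp, Cytl1, Ptgis, Klk10 and some further genes of the vessel wall fell on high fat diet, while most of the vessel wall list did not pass the test. Mgp, the matrix Gla protein gene that restrains calcification (chr6:136872435-136875823, minus strand), had 20570 CPM on chow and 6621 CPM on high fat diet in run A, and 9033 and 1677 CPM in run B. It fell by 2.13 ± 0.19 on the log2 scale (edgeR adjusted p = 2.718e-08), with the same direction in both runs. Cytl1 fell from 4554 to 1670 CPM in run A and from 1925 to 363.3 CPM in run B, a log2 change of -2.05 ± 0.22 (adjusted p = 7.36e-07). For both genes each chow library was above each library on high fat diet. Ptgis, the prostacyclin synthase gene, had 257.5 and 32.6 CPM in run A and 66.0 and 9.32 CPM in run B (-2.88 ± 0.39). The kallikrein gene Klk10 went from 118.6 to 6.52 CPM and from 79.5 to 7.17 CPM (-3.53 ± 0.46).

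Bgn fell by 1.21 ± 0.19, from 1776 to 893.6 CPM and from 880.3 to 362.6 CPM. Mfap5, a microfibril gene, changed by -2.48 ± 0.46 and Reck, an inhibitor of matrix metalloproteinases, by -2.29 ± 0.50. The retinoic acid hydroxylase gene Cyp26b1 changed by -3.69 ± 0.49, from 81.3 to 13.1 CPM and from 212.8 to 12.9 CPM. Bmp4 changed by -1.29 ± 0.33 (adjusted p = 0.04016) and Hey2 by -1.42 ± 0.37 (adjusted p = 0.0368). In the elastic fibre and vessel wall list 5 of 16 genes tested fell and 1 rose. Of 25 arterial markers outside the rule 7 fell and 3 rose, with a median of 0.08. Many arterial genes did not change at this threshold: Gja4 was at 0.06 ± 0.21, Sox17 at 0.18 ± 0.22 and Dll4 at 0.18 ± 0.24. Nos3, at -0.92 ± 0.26, had an adjusted p of 0.06926.

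Genes of fatty acid uptake rose in the mesenteric members. Fabp4, a fatty acid binding protein gene (chr3:10204088-10208576, minus strand), went from 1152 to 4129 CPM in run A and from 9546 to 26310 CPM in run B, a rise of 1.55 ± 0.20 (adjusted p = 1.112e-05). Fabp5 rose by 2.09 ± 0.25, from 47.4 to 247.9 CPM and from 176.5 to 728.0 CPM. The fatty acid translocase gene Cd36 rose by 1.51 ± 0.21, from 91.5 to 384.8 CPM and from 1223 to 3091 CPM. Each was higher on high fat diet in both runs, and the run B library on chow was above the run A library on high fat diet for Fabp4 and Cd36. Angptl4, an inhibitor of lipoprotein lipase, rose by 3.23 ± 0.39 and Gpihbp1 by 1.66 ± 0.35. Gpihbp1 had no UMI in run A on chow. Of 16 fatty acid and cholesterol genes tested 8 rose and none fell, with a median of 1.44 where that of all genes was 0. Of 12 capillary markers 7 rose and none fell.

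Immune and growth factor genes were also among the calls in mesentery. Cxcl10 and Cxcl9, chemokines induced by interferon gamma, rose by 4.54 ± 0.68 and 3.47 ± 0.44. Cxcl10 had 13.6 and 2.02 CPM on chow and 58.7 and 122.5 CPM on high fat diet. The MHC class II genes Cd74 (2.31 ± 0.44), H2-Eb1 (2.66 ± 0.54) and H2-Aa (2.12 ± 0.50) rose, in an antigen presentation list with 3 of 19 called. Ednrb had 0 and 10.8 CPM on chow and 19.6 and 97.5 CPM on high fat diet (3.14 ± 0.52). Inhbb, the activin beta B subunit gene, rose by 3.69 ± 0.53 and Depp1 by 2.61 ± 0.48. The basement membrane genes Col18a1 (1.43 ± 0.26) and Sparc (1.01 ± 0.19) rose.

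Genes of other cell types were called in mesentery as well. The macrophage gene Lyz2 had 0 to 15.1 CPM in the mesenteric members and a log2 change of 4.15 ± 1.05, the adipocyte gene Cfd had a change of -5.53 ± 0.66 with 108 UMIs on chow against 2, and the haemoglobin genes Hbb-bs, Hba-a2 and Hba-a1, whose near-identical copies may share reads, had no UMI in run A of either diet. In the run B libraries the macrophage marker sum was 5.39 CPM on chow and 33.7 on high fat diet, the mural sum 742.2 and 1475 and the adipocyte sum 199.4 and 40.8. Several genes that fell had few or no UMIs left on high fat diet. Igfbp6 had 139 UMIs on chow against 3, Apod 75 against 0, the matrix gene Ogn 42 against 0, Mmrn1 39 against 0 and Glycam1 44 against 2. Most of these UMIs came from the run B library on chow, which held 138 of the 139 for Igfbp6 and 74 of the 75 for Apod. Without that library Igfbp6 was at 1.00. The fibroblast marker sum was 179.6 CPM on chow and 143.5 CPM on high fat diet in run A, and 278.8 and 199.9 CPM in run B. On chow, Pi16 made up nearly all of the run A sum and a much smaller part of the run B sum. The sum is thus not an even measure of fibroblast RNA. The part of such RNA in the diet differences was not tested.

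Without the run B library of mesentery on high fat diet, 21 genes were called and 20 of these were among the 132, and without that of adipose on chow 62 genes were called. Of the 49 genes the naming rule gave for this comparison, 10 kept their call with each of the 8 libraries left out in turn, wherever they could be tested, namely Mgp, Cytl1, Ptgis, Klk10, Fabp4, Fabp5, Cd36, Depp1, the lymphatic marker Mmrn1 and Glycam1, a gene of high endothelial venules. Mmrn1 and Glycam1 could be tested in 4 of the 8 cases, those without a run A library. Many calls were also lost without the run B library of mesentery on chow, where Cxcl10 came to 2.64 and Igfbp6 to 1.00. Cd74 was at -0.03 (adjusted p = 1.0, edgeR) without the run B library of mesentery on high fat diet and at 1.72 (0.195) without that on chow. Bgn had an adjusted p of 0.0845 without the run B library of mesentery on high fat diet, where its value was -1.17, and Angptl4 and Cxcl10 came to 1.71 each (adjusted p = 0.8569 and 0.9224, edgeR). Gpihbp1 was then at 1.83 (0.627) and Ednrb at 1.62 (0.8655). In all, 32 of the 43 named genes that could still be tested lost their call without that library, and 2 turned in sign.

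**Figure D4:**
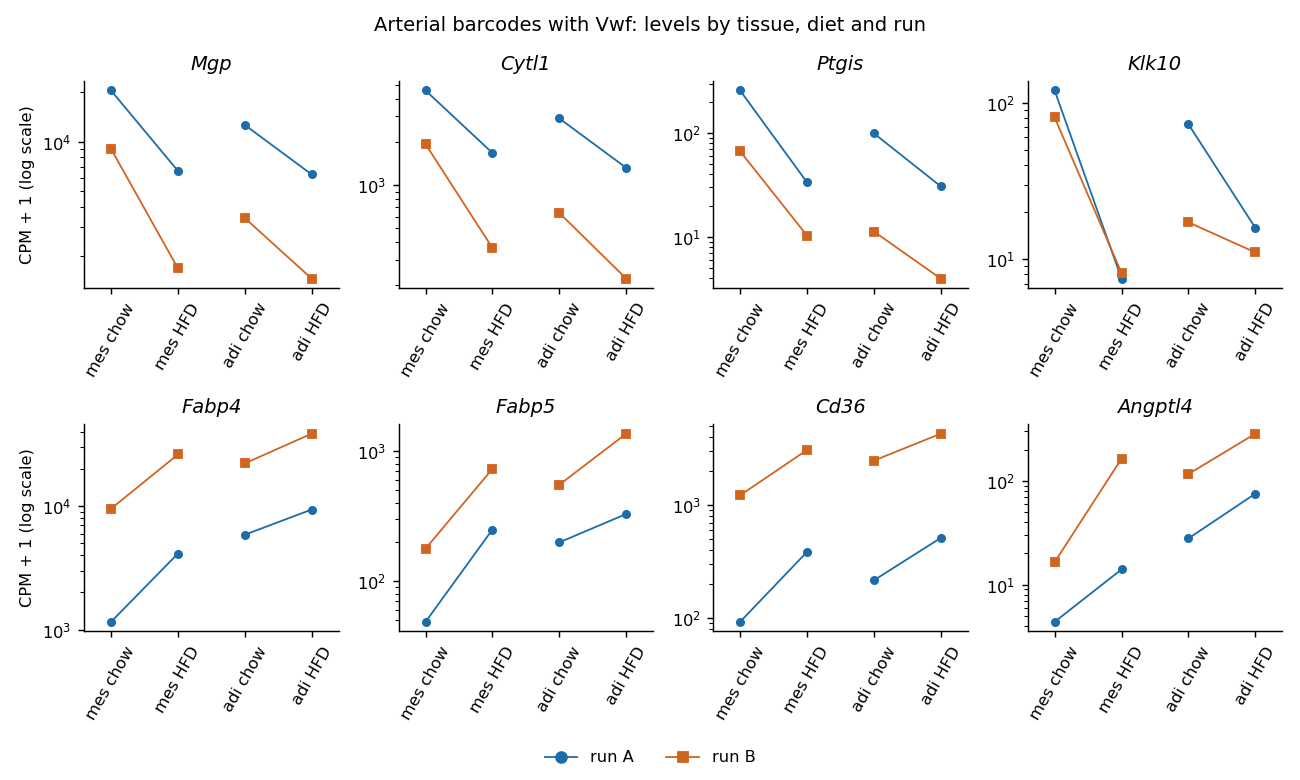
CPM + 1 on a log axis in the members for 8 genes, with lines joining chow to high fat diet (HFD) within mesentery (mes) or adipose tissue (adi) and run. The top row falls in both runs of mesentery, as Mgp does from 20570 to 6621 and from 9033 to 1677 CPM, and the bottom row rises in both, while the runs stand apart by up to several-fold.

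In adipose members fewer genes passed. Mgp went from 12640 to 6292 CPM in run A and from 3403 to 1448 CPM in run B (-1.08 ± 0.19, adjusted p = 0.001839). Cytl1 went from 2906 to 1315 CPM and from 637.8 to 221.8 CPM (-1.30 ± 0.22), and Bmp4 from 107.6 to 44.6 CPM and from 133.6 to 39.6 CPM (-1.60 ± 0.34). Cyp26b1 changed by -5.03 ± 0.75 and the prostaglandin transporter gene Slco2a1 by -1.68 ± 0.29. Of the lipid genes Fabp5 (1.18 ± 0.23), Cd36 (0.98 ± 0.21) and Angptl4 (1.41 ± 0.31) rose, 3 of 16 tested, while Fabp4 was at 0.77 ± 0.20 with an adjusted p of 0.1083. Of the IGF binding protein genes Igfbp5 rose by 2.37 ± 0.40 and Igfbp3 fell by 1.75 ± 0.33. The capillary marker Car4 rose by 1.58 ± 0.35, and 3 of 12 capillary markers rose.

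The adipose calls rested on the run B libraries. Without the run B library on chow, or without that on high fat diet, 3 genes were called, and Mgp had an adjusted p of 0.2299 (-1.17) and 0.5787 (-0.90), Cytl1 of 0.2299 (-1.42) and 0.5787 (-0.98). The proliferation gene Top2a fell with 153 UMIs on chow and 3 on high fat diet, of which 152 came from the run B library on chow. The adipocyte genes Cfd, Car3 and Retn fell and the fibroblast collagen genes Col1a1, Col1a2 and Col3a1 rose in the block fit, each with changes that turned in sign in at least 1 other setting except Cfd. In run B the adipocyte sum of the members was 489.1 CPM with chow against 54.4 with the high fat diet, and the fibroblast sum 50.3 against 612.9. Their part in the diet differences was not tested.

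The diet values of both tissues stand side by side for Mgp (-2.13 and -1.08 in mesentery and adipose tissue), Cytl1 (-2.05 and -1.30), Bmp4 (-1.29 and -1.60), Fabp5 (2.09 and 1.18), Cd36 (1.51 and 0.98) and Ednrb (3.14 and 1.38). The test of the difference itself, the interaction of tissue and diet, called no gene without the block (0.0%, 38 genes with an unadjusted p under 0.05, DESeq2 none) and 7 (0.0791%) with it. None of the 6 genes just named was among the 7. Those 7 were Hba-a1, Hba-a2 and Hbb-bs of haemoglobin, the cell cycle genes Mki67 and Cenpf, and the matrix genes Mfap5 and Aebp1.

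Mesenteric and adipose members were compared on each diet, since the tissue of origin is the other factor of the design. Without the block no gene was called on chow (0.0%, 138 with an unadjusted p under 0.05, DESeq2 called 2) or on high fat diet (0.0%, 49, DESeq2 called 1). With the run as a block 104 genes (1.17%) were called on chow, 53 (0.599%) higher and 51 (0.576%) lower in mesentery. On high fat diet 15 (0.169%) were called, 11 (0.124%) higher and 4 (0.0452%) lower.

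The homeobox gene Nkx2-3, known from vessels of the gut and its mesentery (chr19:43612325-43615892, plus strand), separated the tissues completely. It had 281.3 and 180.5 CPM in mesentery on chow (runs A and B), 176.1 and 90.3 CPM on high fat diet, and no UMI in the members of any of the 4 adipose libraries. Against a floor of 3 UMIs for the adipose group it was at least 129-fold higher on chow and at least 60.1-fold higher with the high fat diet (edgeR adjusted p = 4.947e-11 and 7.702e-09). Its UMIs were found in 45.8 to 50.0% of the mesenteric members on chow and 30.3 to 42.5% on high fat diet, and in none of 269 adipose members on high fat diet of run B. The diet difference in mesentery, -0.94 ± 0.27, had an adjusted p of 0.08696. The homeobox gene Hoxa10 was higher in mesentery on chow by 3.78 ± 0.79 and Meis2 by 1.92 ± 0.33, and Meis2 by 1.80 ± 0.39 on high fat diet.

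Plvap, the diaphragm protein gene of fenestrae and caveolae, had 325.3 and 792.7 CPM in mesentery on chow and 53.8 and 92.0 CPM in adipose tissue on chow, a difference of 3.04 ± 0.32 (adjusted p = 4.482e-07). On high fat diet it was at 632.7 and 756.6 against 59.4 and 309.4 CPM (1.83 ± 0.28). Vcam1 was higher in mesentery by 1.97 ± 0.24 on chow and 1.34 ± 0.24 on high fat diet. Pi16, a fibroblast marker, was higher in mesentery on both diets, at 176.2 and 101.0 CPM against 8.97 and 8.66 CPM on chow (3.49 ± 0.45). On chow the mesenteric members also had more Mgp (1.15 ± 0.19), Cytl1 (1.24 ± 0.21), Ptgis (2.23 ± 0.37) and Plat (1.74 ± 0.27).

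Cldn5, a tight junction gene, was lower in mesentery, at 2562 and 1245 CPM against 5498 and 3104 CPM on chow (-1.14 ± 0.19) and at 2153 and 1665 against 5081 and 2583 CPM on high fat diet (-0.94 ± 0.19). The lipid genes Fabp4 (-1.68 ± 0.21), Fabp5 (-1.68 ± 0.25), Lpl (-2.19 ± 0.36), Angptl4 (-2.83 ± 0.39), Gpihbp1 (-1.77 ± 0.35) and Cd36 (-1.02 ± 0.22) were lower in mesentery on chow, 8 of 16 tested, and none of the 16 was called on high fat diet, where Fabp4 had -0.90 ± 0.20 and an adjusted p of 0.05141. Of the 13 capillary markers on the list, 6 were called on chow, all lower in mesentery, where 0.576% of all genes tested were called lower. The comparisons of diet and of tissue share the chow libraries of both tissues, so their values are not independent.

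Leaving out the run B library of adipose on chow left 7 calls in the tissue comparison on chow. Of 38 named genes that could then be tested, 4 kept their call. Plvap was at 2.77 and Mgp at 1.06 without that library, and neither kept its call. Over all 8 cases, 6 named genes kept their call wherever they could be tested. Among them were Nkx2-3, Fabp4, Hoxa10 and the smooth muscle gene Tagln (-1.67 ± 0.31). Hoxa10 could be tested in only 4 of the 8 cases, those without a run A library. Many calls were also lost without the run B library of mesentery on chow, where Mgp was at 0.72. On high fat diet 2 to 62 genes were called with 1 library left out, and Nkx2-3 kept its call each time.

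**Figure D5:**
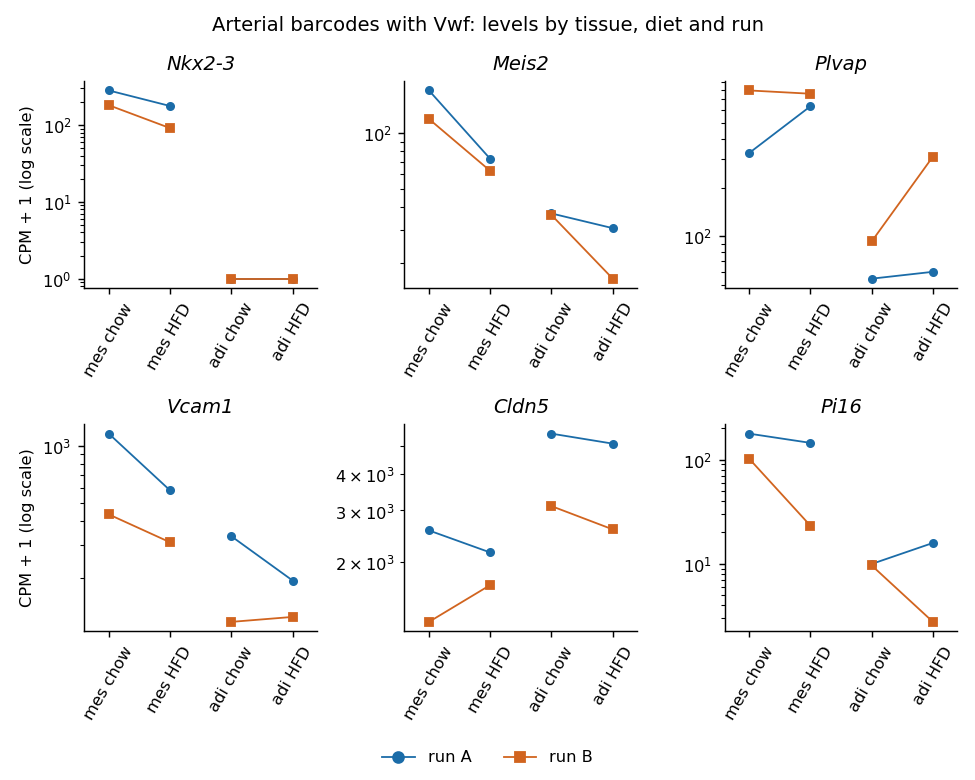
CPM + 1 on a log axis in the members for 6 genes by tissue, diet and run, drawn as in the plot of levels by diet. Nkx2-3 lies at 90.3 to 281.3 CPM in mesentery and at 0 in all 4 adipose libraries, and Cldn5 is lower in mesentery than in adipose tissue on the same diet and run.

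It was then asked whether the diet moved members and arterial barcodes without Vwf differently in mesentery. Of 8240 genes tested with edgeR and a library block, 18 (0.218%) were called, 15 (0.182%) of them with a value above 0 and 3 (0.0364%) below 0. A value above 0 means that the level with Vwf relative to that without was higher on high fat diet than on chow, whichever class had more. For Cytl1, levels with Vwf went from 4554 to 1670 and from 1925 to 363.3 CPM, and without Vwf from 2273 to 501.7 and from 490.1 to 28.9 CPM, an interaction of 1.38 ± 0.31 (adjusted p = 0.004583). Vcam1 went from 1159 to 580.5 and from 433.1 to 308.1 CPM with Vwf, and from 1067 to 104.5 and from 122.9 to 24.9 CPM without (2.32 ± 0.39). Tmem100, a gene downstream of BMP signalling in arteries, went from 40.7 to 137.0 and from 111.1 to 255.1 CPM with Vwf, and from 139.2 to 146.3 and from 224.6 to 76.5 CPM without (2.57 ± 0.42). In run A the levels without Vwf rest on 22 barcodes with 64715 UMIs on chow. On high fat diet they rest on 17 barcodes with 47861 UMIs. DESeq2 called none of the 8240 genes, with 49 at an unadjusted p under 0.05. Without the run B library of adipose on high fat diet 1 gene was called, and without that of mesentery on high fat diet 2 were.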

How the data were processed

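The authors deposited raw UMI counts per gene and barcode for 8 libraries. Per the file headers, run A carries software version 3.0.2 and run B Cell Ranger 5.0.0. The submitters' processing notes name mm10 and Seurat 4.3.0. Cell calling settings were not given in the sources used here. Only the 30406 genes in both feature lists entered, which hold 99.58 to 99.93% of the UMIs.

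Counts of the members, of arterial barcodes without Vwf and of Selp barcodes were summed per library. Sums were tested in R 4.3.3 with edgeR 4.0.16 (glmQLFit, TMM, filterByExpr), and p-values were Benjamini-Hochberg adjusted over all genes tested. Diet and tissue were fitted on the 8 member sums with 1 mean per group, and again with the run as a block. Per the labels' protocols, runs are repeats of 1 experiment, and the difference between runs correlated across 8863 genes with r of 0.373 to 0.477 between groups. Classes within a library were compared with the library as a block. DESeq2 1.42.0 and limma 3.58.1 were alternatives. The standard error is the log2 fold change over the root of its F value. Scripts were tested on simulated data. P-values of the share, diet and tissue tests rest on the spread between pools, after the run is taken out where it is a block. Those of the class comparisons rest on how the difference within a library varied between libraries.

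The members and all gene lists were chosen with earlier results of these data known, so list counts are descriptions. Named genes were those with the largest called changes in each direction with at least 20 UMIs and the same direction in both runs (7 of 8 libraries for classes), up to 4 called genes of each list, and 10 genes an earlier analysis had named. Other gene names in the text were chosen after their values were seen. Gene positions are from GENCODE vM21.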

Additional observations from a re-analysis of the deposited data

Results flagged for a closer look

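In 7 genes the diet effect in the members differed between mesentery and adipose tissue by the interaction test with the run as a block (edgeR), and each value below is the diet effect in mesentery minus that in adipose tissue on the log2 scale. The haemoglobin genes Hba-a2 (8.86), Hba-a1 (8.18) and Hbb-bs (8.08) had 40.1, 45.9 and 178.4 CPM in the run B library of mesentery on high fat diet. All 3 were at 0 in the 3 run A libraries other than adipose on high fat diet, and their near-identical copies make the counts of each uncertain. The cell cycle genes Cenpf (7.48) and Mki67 (6.57) had 61.1 and 69.3 CPM in the run B library of adipose on chow and 0.592 CPM each in that of adipose on high fat diet. The microfibril gene Mfap5 (-4.99) and the collagen-binding gene Aebp1 (-3.44) were lower on high fat diet in mesentery. In run B, Mfap5 went from 59.3 to 8.60 CPM there and from 7.57 to 58.0 CPM in adipose tissue.

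In 18 genes the difference between arterial barcodes with and without Vwf in mesentery was not the same on the 2 diets, given as high fat diet minus chow. The values were 8.11 for Cxcl10, 6.71 for Fgl2, 3.70 for Ms4a6b, 3.11 for Gm35167, 2.97 for H2-Ab1, 2.57 for Tmem100, 2.41 for Ednrb, 2.38 for Dkk2, 2.32 for Vcam1, 2.00 for Igfbp3, 1.90 for Serpinf1, 1.71 for Igfbp4, 1.42 for Plvap, 1.38 for Cytl1 and 1.34 for Igfbp7. The smooth muscle genes Myh11 (-7.56) and Acta2 (-3.08) and the pericyte gene Rgs5 (-1.77) went the other way. Acta2 had 857.1 CPM in the 17 barcodes without Vwf of mesentery on high fat diet in run A, and 46.4 CPM or less without Vwf in both mesenteric libraries on chow. With 1 library left out the sign turned for Myh11 (up to 1.09), Rgs5 (up to 3.09) and H2-Ab1 (down to -6.13), and thinning to 1000 UMIs gave Rgs5 1.30. None of the 15 genes given by the naming rule kept its call with each library left out in turn, and DESeq2 called none of the 18. None of these 25 values had its cause tested.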

How the results depend on the processing

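The first fit of diet and tissue had no term for the run and called no gene in any of the 5 comparisons. The run was then added as a block, because the labels name the runs as repeats of 1 experiment. The genes described above as changed with diet or tissue rest on that added fit. With the replicate block, calls rose from 0 in all 5 comparisons of diet and tissue to 132 (diet in mesentery), 42 (diet in adipose tissue), 104 (tissue on chow), 15 (tissue on high fat diet) and 7 (interaction). Without a block, keeping genes of low counts gave 42, 10, 25, 5 and 7 calls in that order, DESeq2 gave 1 for diet in adipose tissue, 2 for tissue on chow and 1 for tissue on high fat diet, and leaving out 1 library gave 0 to 1 for tissue on chow. With the block, DESeq2 called 44, 3, 28, 2 and 1 genes, limma-voom 57, 1, 41, 2 and 1, and thinning to 1000 UMIs 17, 0, 10, 4 and 1. Vwf at 2 UMIs or more gave 27 for diet in adipose tissue and 4 for the interaction, no filter 79, 49 and 24 for diet in adipose tissue, tissue on high fat diet and the interaction, and leaving out the highest Scrublet scores 30 and 13 for the last pair. Leaving out 1 library gave 21 to 196, 3 to 91, 7 to 178, 2 to 62 and 0 to 34 calls.

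Members against barcodes without Vwf gave 69 calls when thinned, 43 with no replicate block, 55 in run A only and 453 to 1007 without 1 library. Members against Selp barcodes gave 295, 1105 and 789 in the first 3 of these settings. The difference of classes by diet gave 0 with DESeq2 or thinning and 1 to 24 without 1 library. The single-run settings were chosen after seeing the data.

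Signs turned in few values. In diet in adipose tissue Col1a1 was -0.21 with DESeq2 and -0.12 with Vwf at 2 UMIs or more, Col1a2 -1.51 and Col3a1 -0.22 with DESeq2, and Mfap5 -0.66 with Vwf at 2 UMIs or more. In tissue on high fat diet Hba-a1 was -0.22 with DESeq2 and Mfap5 0.71 with Vwf at 2 UMIs or more. In run A only, Jag1 was -0.20, Notch4 -0.03 and Tcf15 0.11 for members against barcodes without Vwf, and Acta2 -0.49 against Selp barcodes. Thinned, the class difference by diet was 1.30 for Rgs5 and -0.02 for Serpinf1.

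With 1 library left out, Car3 ranged from -3.81 to 4.36 for diet in adipose tissue, -3.58 to 2.11 for diet in mesentery and -5.78 to 4.34 for tissue on chow. Col3a1 ranged from -2.68 to 3.98 for diet in adipose tissue and -3.13 to 5.94 in mesentery, Col1a1 from -5.16 to 4.06, Col1a2 from -3.69 to 3.17, Retn from -4.20 to 0.76 and Lrg1 from -0.15 to 2.73 in adipose tissue. Hba-a1 ranged from -1.51 to 9.80 for the interaction and -5.31 to 5.96 for tissue on high fat diet, Hba-a2 from -0.18 to 9.87 and -4.20 to 5.77, and Hbb-bs from -2.27 to 9.02 and -5.87 to 5.34. The other ranges that crossed 0 were those of Cd74 (-0.03 to 2.81) and Igfbp6 (-7.78 to 1.00) for diet in mesentery, of Gja1 (-2.02 to 6.18) and Olfm2 (-3.26 to 0.12) for tissue on chow, and of H2-Ab1 (-6.13 to 3.83), Myh11 (-8.45 to 1.09) and Rgs5 (-1.78 to 3.09) for the class difference by diet.

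Over all settings the genes named for diet in mesentery kept direction and side of the threshold in 506 of 670 values, for diet in adipose tissue in 269 of 390, for tissue on chow in 461 of 574, for tissue on high fat diet in 129 of 195, for the interaction in 54 of 92, for members against barcodes without Vwf in 972 of 1101, against Selp barcodes in 1307 of 1341 and for the class difference by diet in 116 of 201. The causes of these shifts were not tested. Run A gave 40 to 64 members a library and run B 201 to 308.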
